A study of Homo sapiens with 6 samples.

Results

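The transcripts examined here encode tissue-dependent regulators of alternative splicing: the muscleblind-like proteins MBNL1, MBNL2 and MBNL3, the CELF proteins CELF1 and CELF2, RBFOX2, QKI, the polypyrimidine tract binding proteins PTBP1 and PTBP2, and ESRP2. The list held 10 genes, and a gene counted as measured when the platform annotation paired a probe set with its symbol. This gave 6 genes with 7 probe sets, out of 16098 named probe sets (14884 genes) on the array. MBNL1 had 2 probe sets, MBNL2, MBNL3, PTBP1, PTBP2 and ESRP2 had 1 each, and CELF1, CELF2, RBFOX2 and QKI had 0 named probe sets and were not analysed here. The set was drawn up because MBNL3 was higher in the miR-196b group, so the contrast between the groups is described for the members and supports nothing by itself.

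Expression was measured with whole-transcript arrays in the human colorectal carcinoma line HCT116. Cells stably transduced to overexpress miR-196b (3 arrays) were set against cells stably transduced with an empty vector (3 arrays), both grown in the same serum-containing medium. The labels call the arrays biological replicates without saying whether each came from a separate transduction or clone, so the intervals below cover the spread between these cultures, and the number of arrays limits the precision. Values are RMA levels on a log2 scale, normalised by the authors, and every change is miR-196b minus control. The probe set of MIR196B read 8.21, 7.93 and 8.01 in the arrays labelled miR-196b, against 8.09, 7.91 and 7.91 in control, so it did not separate the groups. That of MIR196A2, a related precursor gene, read 10.6, 10.5 and 10.8 in the arrays labelled miR-196b, against 3.09, 3.21 and 2.88 in control. That of MIR196A1 read 4.60, 4.86 and 4.88 in the arrays labelled miR-196b, against 4.97, 4.78 and 5.40 in control, with overlapping groups. The array reads precursor transcripts and gives no level of a mature microRNA, so the groups are called by their labels throughout.

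The mature sequences are shown because they define the agent that the labels name and its relative whose precursor signal differed between the groups. They were taken from RefSeq (GRCh38.p14), and capitals mark the seed, bases 2 to 8, which pairs with target transcripts. The first is encoded at chr7:27169528-27169549 on the minus strand and the second, from MIR196A2, at chr12:53991762-53991783 on the plus strand.
hsa-miR-196b-5p: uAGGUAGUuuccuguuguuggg
hsa-miR-196a-5p: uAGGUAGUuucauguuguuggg
Both are 22 bases long and share the seed. They differ at 1 position, written C12A with the miR-196b-5p base first and positions counted from the 5′ end. Target sites in the members were not searched for here.

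Alternative splicing joins different exons of a transcript, and regulators bound near an exon promote or repress its inclusion. MBNL proteins bind RNA through zinc fingers and help switch transcripts from fetal to adult exon patterns, chiefly in muscle and brain. In myotonic dystrophy they are trapped by expanded repeat RNA. PTBP proteins repress exons, many of them neuronal, and ESRP proteins maintain the exon choices of epithelial cells. A gene-level array value gives the amount of a regulator's transcript and says nothing about which exons were spliced.

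MBNL3 was the member with the largest change. In mouse muscle cells this protein is linked to the proliferating precursor state and opposes differentiation. Its probe set (17114220) read 4.92, 4.93 and 4.85 in the miR-196b arrays, against 3.76, 4.24 and 3.77 in control. All 3 miR-196b arrays lay above all 3 control arrays, with a gap of 0.61 log2 units between the nearest arrays of the groups. The miR-196b arrays lay close together, while control replicate 2 lay above the other control arrays. The means were 4.90 ± 0.0436 in miR-196b and 3.92 ± 0.276 in control (log2, SD, n = 3 each). The change was 0.98 with an SE of 0.14, or 1.97-fold with a 95% interval of 1.58 to 2.46 on the linear scale. This value led to the choice of the members, so it is a description, and the calls given further on for MBNL3 support nothing.

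The signal of MBNL3 was in the dim part of the array. Its level stood at the 40.04 to 41.1 percentile of the named probe sets in the miR-196b arrays, against the 22.7 to 30.5 percentile in control. The files hold no detection call, so whether the control level exceeds background was not tested, and a fold of dim RMA values need not be the fold of the transcript. The pooled within-group SD of this probe set was 0.198, against a median of 0.128 over all named probe sets, and its SD was higher than that of 77.1% of them. These comparisons take in probe sets of all levels, and whether its spread is unusual for its level was not tested.

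**Figure D1:**
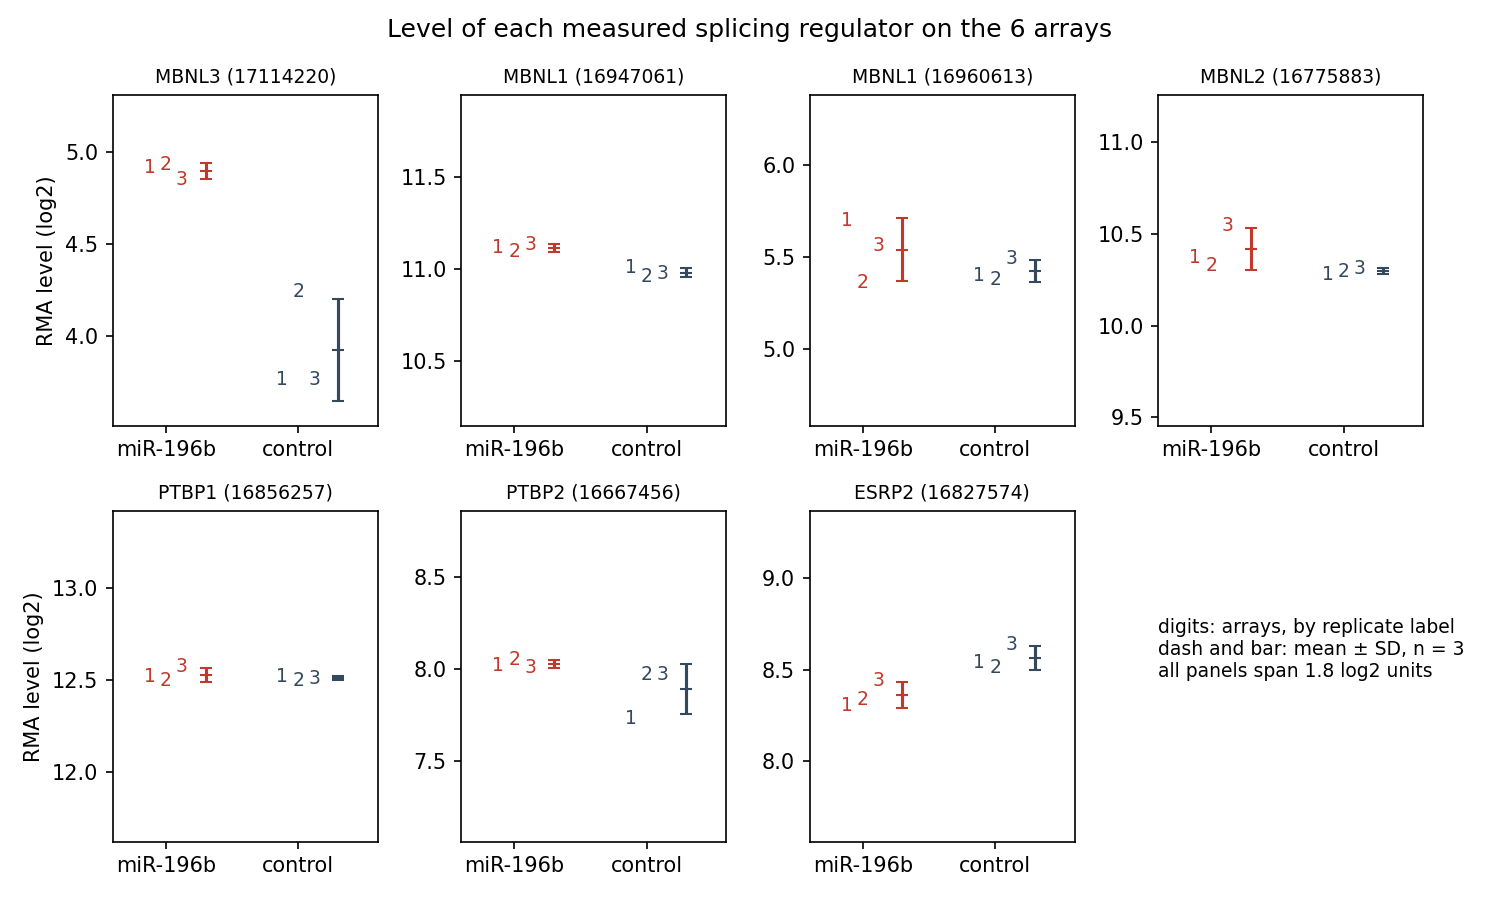
RMA level (log2) of the 7 member probe sets, a panel each with the same height in log2 units; digits are the arrays by replicate label, dashes with bars are means ± SD (n = 3), with miR-196b on the left and control on the right of each panel. MBNL3 shows the only gap of more than 0.5 log2 units between the groups, and control replicate 2 stands above the other control arrays there.

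The paralogs of MBNL3 were read by brighter probe sets and differed far less. MBNL1, the main muscleblind protein of skeletal muscle, had 2 probe sets that the annotation ties to the same transcript accession. The brighter (16947061) read 11.12, 11.09 and 11.13 in the miR-196b arrays, against 11.01, 10.96 and 10.97 in control. These groups did not overlap, and the change was 0.13 (95% interval -0.02 to 0.29), or 9.76% more signal. Its arrays varied little, with SDs of 0.0202 in miR-196b and 0.0228 in control (n = 3 each). The fit draws such a small spread toward that of other probe sets: the SE was 0.0664, against 0.0176 without that step. The dimmer MBNL1 probe set (16960613) read 5.70, 5.36 and 5.56 in the miR-196b arrays, against 5.40, 5.38 and 5.49 in control. Its groups overlapped, with a change of 0.12 (95% interval -0.12 to 0.35). It was 0.04 without miR-196b replicate 1 and 0.21 without miR-196b replicate 2, so its size rests on single arrays. Both probe sets gave a positive change, and separated groups were seen at the brighter alone. Which strand or part of the gene each probe set reads was not examined, so the shared sign is not taken as agreement.

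MBNL2, the muscleblind protein with the larger role in brain, read 10.37, 10.33 and 10.55 in the miR-196b arrays, against 10.28, 10.29 and 10.31 in control. The groups did not overlap, but by a gap of 0.0175 only, and miR-196b replicate 3 carried much of the difference. The change was 0.12 (95% interval -0.07 to 0.31). Without that array it was 0.05, which is the lowest of the values with an array left out. The 3 muscleblind genes thus all had higher means in miR-196b; since MBNL3 was picked for its size, the difference between it and its paralogs was not tested. Whether probes of MBNL3 take up signal from its paralogs was not examined, as probe sequences were not used here.

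PTBP1, the ubiquitous repressor of neuronal exons, had the least change. It read 12.52, 12.50 and 12.57 in the miR-196b arrays, against 12.52, 12.50 and 12.51 in control. The groups overlapped, with a change of 0.02 and a 95% interval of -0.14 to 0.18, which leaves room for a change between -9.19% and 13.1%. PTBP2, its paralog that takes over in developing neurons, read 8.02, 8.05 and 8.01 in the miR-196b arrays, against 7.73, 7.97 and 7.97 in control. These groups were separated by 0.0411 log2 units, and control replicate 1 lay well below all other arrays. The change of PTBP2 was 0.14 (95% interval -0.07 to 0.34), and it was 0.06 without control replicate 1.

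ESRP2, an epithelial regulator that keeps epithelial exons in receptors and adhesion proteins, was the member with a lower level. It read 8.30, 8.34 and 8.44 in the miR-196b arrays, against 8.54, 8.51 and 8.64 in control. The groups did not overlap, with a gap of 0.0704. The means were 8.36 ± 0.0708 in miR-196b and 8.56 ± 0.0657 in control (log2, SD, n = 3 each). The change was -0.20 with a 95% interval of -0.38 to -0.02, or -13.0%. Its paralog ESRP1 read 10.08, 10.41 and 10.23 in the miR-196b arrays, against 10.22, 10.28 and 10.21 in control, a change of 0.00197 with overlapping groups. Whether the changes of the ESRP genes differ from each other was not tested.

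**Figure D2:**
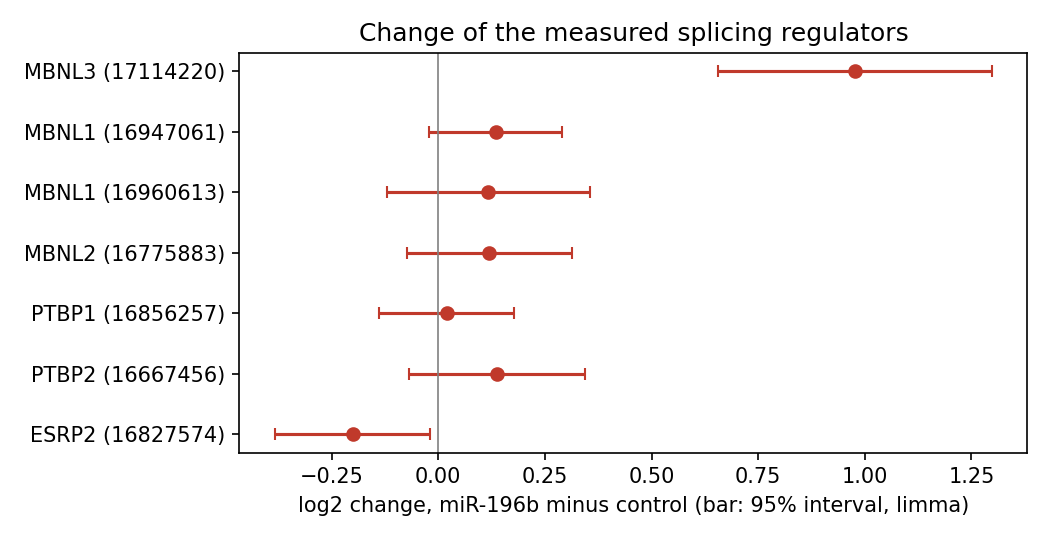
Log2 change (miR-196b minus control) of each member probe set, with 95% intervals from the limma fit. MBNL3 lies at 0.98, ESRP2 at -0.20, and the other 5 probe sets lie between 0.02 and 0.14 with intervals that reach across 0.

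Counted together, 6 of the 7 member probe sets were higher in miR-196b and 1 was lower, where 8365 of all 16098 named probe sets were higher. The median log2 change of the members was 0.12, beside 0.0069 over all named probe sets. The groups did not overlap at 5 of the 7 (4 higher and 1 lower), where 17.2% of all named probe sets were so separated (10.0% higher and 7.18% lower). After Benjamini-Hochberg adjustment over all 16098 named probe sets, limma called 0 of the 7 at 0.05, where it called 0.0559% of all (0.0248% higher and 0.0311% lower). At an unadjusted p below 0.05 it counted 2 of the 7, MBNL3 and ESRP2, where 9.87% of all were counted (5.73% higher and 4.14% lower). With the members chosen on this contrast, nothing is read from these counts. A robust prior with a trend lets the expected spread vary with level. It called 1 of the 7, MBNL3, and 91 of all 16098 named probe sets. The fit without control replicate 2 also called MBNL3 alone among the members, and 3 of all named probe sets. Nothing is read from these calls of MBNL3 either.

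**Figure D3:**
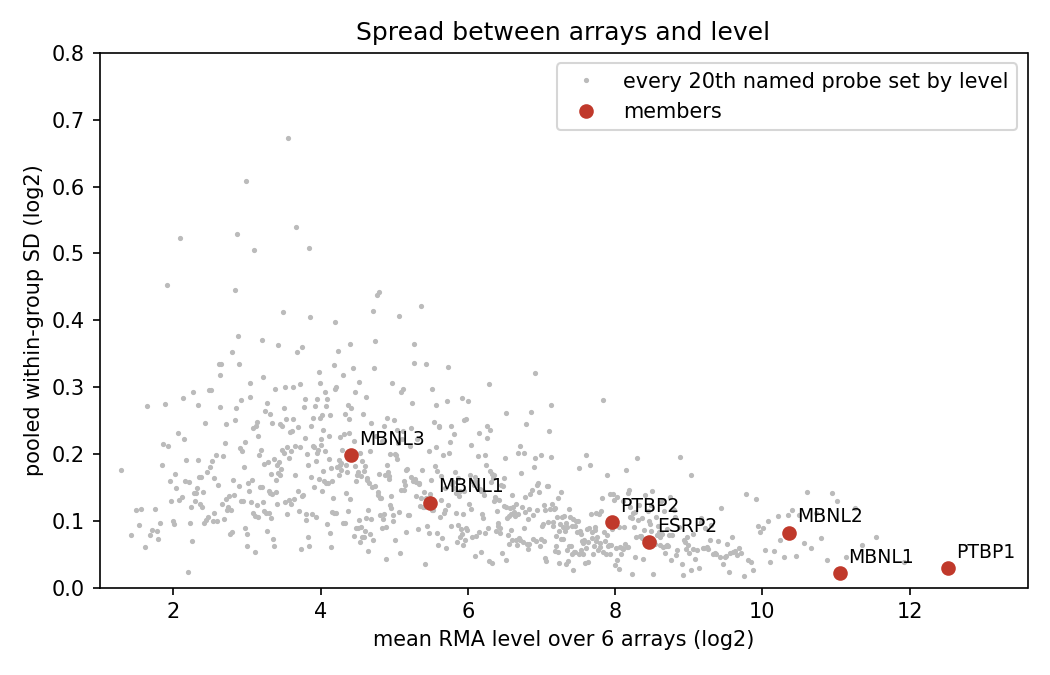
Pooled within-group SD against mean level (both log2) for the 7 member probe sets, labelled, and for every 20th named probe set in order of level. MBNL3 lies among the dim and more variable probe sets, while the brighter MBNL1 probe set and PTBP1 lie among the brightest, with little spread.

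The change of MBNL3 lay between 0.90 and 1.14 in all 13 alternatives that contained the probe set. Those that altered only the variance model, the replicate block or the tested set could not move it and gave 0.98. All used arrays that led to the choice of MBNL3, so the range is a description and supports nothing. The highest value came without control replicate 2 and the lowest without control replicate 1. The filter that left out the dimmest 40% of named probe sets removed MBNL3 and kept the other 6 member probe sets.

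**Figure D4:**
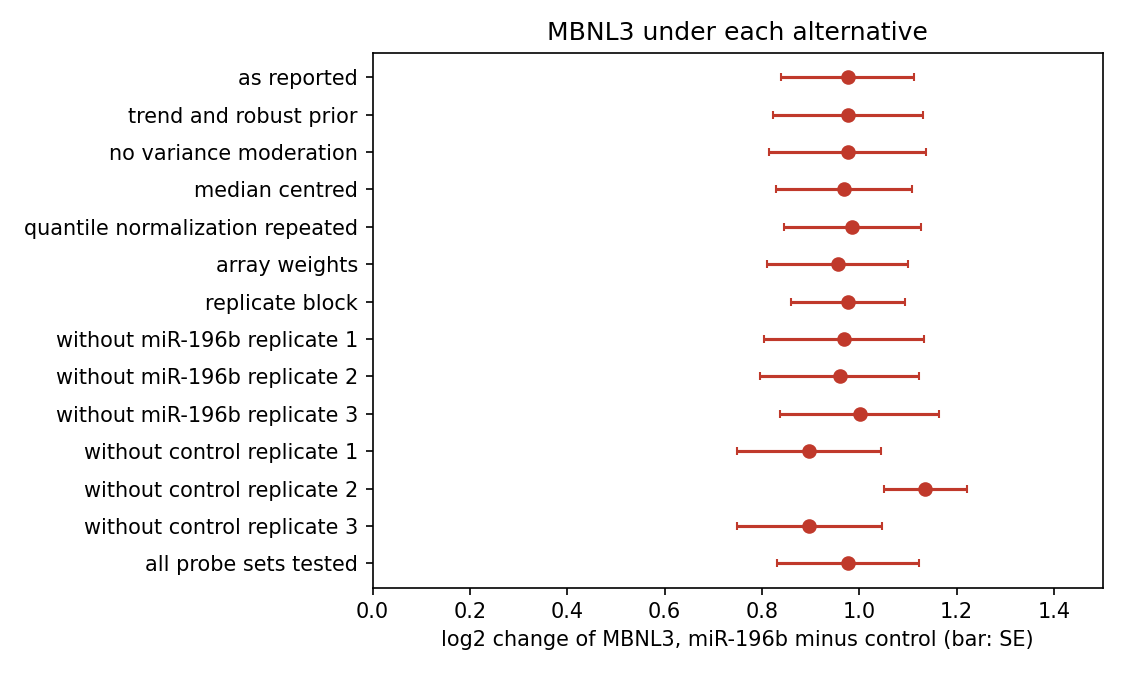
Log2 change of MBNL3 (miR-196b minus control, bars are SE) as reported and in the 13 alternatives that contain its probe set. The values run between 0.90 and 1.14, and leaving out control replicate 2 gives the highest value and the smallest SE, 0.0851.

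MBNL3 lies on chromosome X, and its nearest measured protein-coding neighbours, 3 on each side in the GRCh38.p14 gene order, were chosen after the MBNL3 value was known. On one side, ARHGAP36 had a change of -0.13, STK26 of 0.06 and FRMD7 of 0.01, all with overlapping groups. On the other, HS6ST2, a heparan sulfate sulfotransferase, had 0.24 and the glypican GPC4 0.25, with overlapping groups, and USP26 had 0.28 with separated groups. None of the 6 passed the limma test (adjusted p = 0.490 to 0.981). Only 1, USP26, had an unadjusted p below 0.05, where 9.87% of all named probe sets did. Groups were separated at 17.2% of all named probe sets. USP26 was dim, at 2.89 in miR-196b and 2.61 in control, with a gap of 0.00753 between the groups.

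Promoter windows are shown for the muscleblind genes, as the family of MBNL3, so that their start regions can be compared. PTBP1 and PTBP2 also had higher means in miR-196b, and their windows are not shown. RefSeq (GRCh38.p14) windows were matched for 5 of the 6 measured genes (not ESRP2), with 3 starts for MBNL1, 2 for MBNL2 and 4 for MBNL3. Each sequence below is the 250 bases before the most upstream start listed, 5′ to 3′ on the gene's strand, and capitals mark GGGCGG, the core of the Sp1 motif, on either strand, the only searched motif found in them. MBNL3 lies at chrX:132490036-132490285 (minus strand), MBNL1 at chr3:152268679-152268928 (plus) and MBNL2 at chr13:97141584-97141833 (plus).
MBNL3: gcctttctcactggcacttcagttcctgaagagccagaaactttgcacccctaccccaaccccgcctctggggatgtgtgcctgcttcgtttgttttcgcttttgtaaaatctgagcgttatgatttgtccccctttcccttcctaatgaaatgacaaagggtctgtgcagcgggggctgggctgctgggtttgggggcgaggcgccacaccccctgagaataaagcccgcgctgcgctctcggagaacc
MBNL1: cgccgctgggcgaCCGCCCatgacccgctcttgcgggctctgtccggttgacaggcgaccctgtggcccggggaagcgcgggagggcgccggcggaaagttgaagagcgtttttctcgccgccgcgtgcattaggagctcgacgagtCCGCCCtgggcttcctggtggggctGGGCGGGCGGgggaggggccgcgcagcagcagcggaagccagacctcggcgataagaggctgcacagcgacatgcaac
MBNL2: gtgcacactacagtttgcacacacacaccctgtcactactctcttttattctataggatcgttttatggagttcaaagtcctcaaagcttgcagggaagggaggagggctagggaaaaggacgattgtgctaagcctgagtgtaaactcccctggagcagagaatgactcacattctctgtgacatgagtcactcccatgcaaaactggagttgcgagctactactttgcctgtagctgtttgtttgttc
The array values do not say which start was used.

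The windows differ in base composition. GC content was 56.4% for MBNL3, 70.8% for MBNL1 and 46.8% for MBNL2, with a median of 58% over all 35116 listed windows. The dinucleotide CG occurred 11 times in the MBNL3 window, 30 times for MBNL1 and 3 times for MBNL2, with a median of 11. The TATA box motif TATAAA was searched on both strands and was held by 10.7% of all windows of this length. The motif CCAAT was held by 32.0% of them on either strand. The motif GGGCGG was held by 42.6% of them on either strand. The motifs do not share letters with each other in the windows shown. MBNL1 had 4 matches to GGGCGG, of which a pair on the plus strand overlap, while the MBNL3 and MBNL2 windows above held 0 matches to any of the motifs. Of the 4 MBNL3 windows, 2 held the TATA box motif, 1 the CCAAT motif and 1 the Sp1 motif. Of the 3 MBNL1 windows, 1 held the Sp1 motif and 0 the others. Of the 2 MBNL2 windows, 1 held the CCAAT motif and 0 the others. A match is a description of the letters only.

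Other genes of the splicing machinery were counted in the same fit, by lists drawn up with earlier results of these data known. Of 125 listed genes 96 were measured, each by its brightest probe set. Limma called 0 of the 96 at an adjusted p of 0.05, where 0.0559% of all named probe sets were called. At an unadjusted p below 0.05 it counted 6 (5 higher and 1 lower), or 6.25% where the background is 9.87%. The 6 were TIA1, MSI2, RBM47, CLK1 and HNRNPLL on the higher side and RBM38 on the lower. The groups did not overlap at 17 of the 96 (12 higher and 5 lower), or 17.7%, where the background is 17.2%. The median change was 0.01, beside 0.0069 over all named probe sets.

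Among paralogs of the members and other regulators, 27 of 42 listed genes were measured, 19 with a positive and 8 with a negative change (median 0.04). Of all 16098 named probe sets, 8365 had a positive change. PTBP3 and ESRP1 were the only measured paralogs of members, as the listed CELF and RBFOX paralogs were not measured. TIA1, which promotes inclusion of exons with weak splice sites, read 8.33, 8.23 and 8.29 in the miR-196b arrays, against 7.94, 8.02 and 7.97 in control. Its groups were clearly apart, and its change was 0.31 (SE 0.07), but TIA1 stayed above the threshold (limma adjusted p = 0.338). Under a robust prior with trend it passed (adjusted p = 0.0498), and over the alternatives the adjusted p ran from there to 0.609. MSI2, an RNA-binding protein of stem and progenitor cells, had a change of 0.21 (adjusted p = 0.451), and RBM47, an RNA-binding regulator of splicing and RNA stability, 0.38 (0.453), or 0.24 without control replicate 2. RBM38, a p53-induced RNA-binding protein, had -0.26 (0.491). PTBP3 had a change of 0.07 with separated groups.

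All 8 kinases of SR proteins were measured and had a positive change (7 of 8 under median centring, 6 under a repeated quantile normalisation), with a median of 0.06 and 0 past the test. In the values as deposited, 8365 of all 16098 named probe sets had a positive change. CLK1, a nuclear kinase that phosphorylates SR proteins, read 7.17, 7.13 and 7.35 in the miR-196b arrays, against 6.94, 6.88 and 6.90 in control. The groups were separated and the change was 0.31 (SE 0.08), which did not pass (limma adjusted p = 0.360). DYRK1A had 0.14, CLK4 0.20 and SRPK3 0.08. With an array left out, CLK4 lay between 0.11 (without control replicate 1) and 0.27, and SRPK3 between 0.0147 (without miR-196b replicate 1) and 0.19 (without control replicate 1). The SR proteins themselves, which bind exons and promote their inclusion, had 9 of 12 measured members with a positive change (7 after a repeated quantile normalisation) and 0 called (median 0.04). Their smallest p was that of TRA2A (0.14, adjusted p = 0.545), followed by SRSF12 (0.35), SRSF5 (0.12) and SRSF3 (0.07). SRSF12 had a dim probe set, at 2.67 in miR-196b and 2.32 in control, and its change was 0.16 without miR-196b replicate 2.

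The hnRNP proteins, many of which repress exons, had 9 of 19 measured members with a positive and 10 with a negative change (median -0.01), and 0 were called. HNRNPLL, a regulator of exon skipping in lymphocytes, had a change of 0.30 (limma adjusted p = 0.427), with separated groups. HNRNPC had 0.14, HNRNPK 0.11 and HNRNPDL -0.11. Core spliceosome proteins had 20 of 29 measured members with a negative change (21 under median centring or a repeated quantile normalisation), within -0.16 and 0.07 (median -0.04), and 0 were called. In the values as deposited, 7733 of all 16098 named probe sets had a negative change. The members of that list with the smallest p were SNRPD1 (-0.16), SLU7 (-0.15), U2AF2 (-0.10) and SF1 (-0.09), with limma adjusted p of 0.611 to 0.688. DMPK, whose expanded repeat traps MBNL proteins in myotonic dystrophy, had a change of 0.00699 with a 95% interval of -0.19 to 0.21, and its sign turned under median centring and under repeated quantile normalisation.

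**Figure D5:**
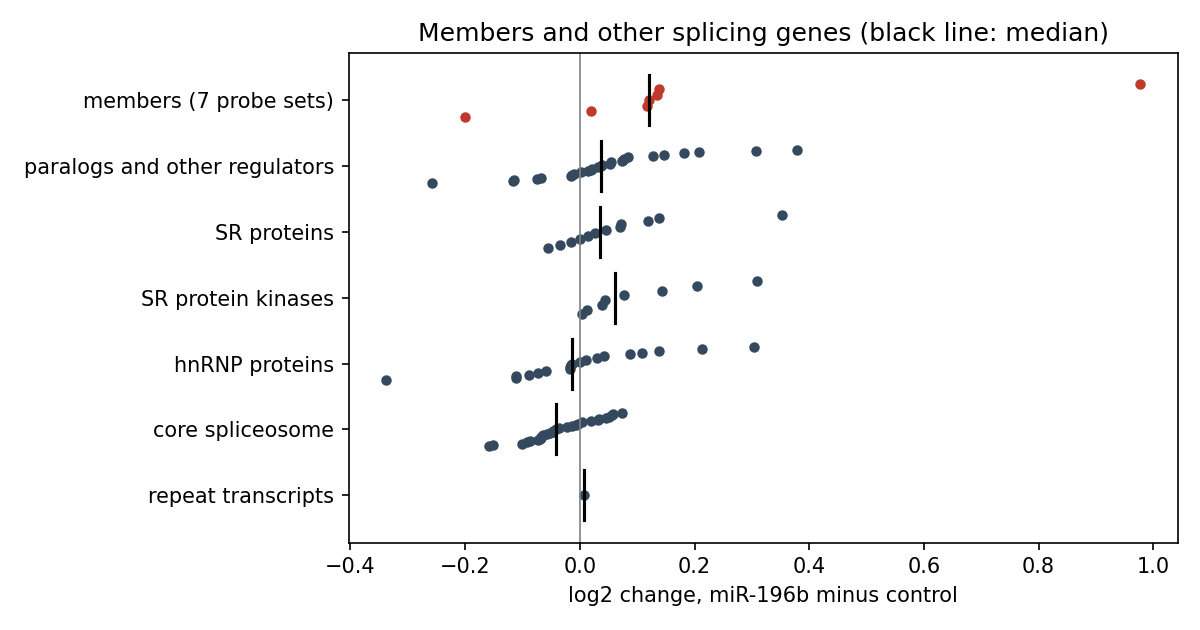
Log2 change (miR-196b minus control) of the 7 member probe sets and of 96 other splicing genes by list; each point is a probe set and black lines are medians. MBNL3 at 0.98 lies beyond every other point, of which the highest is RBM47 at 0.38 and the lowest HNRNPA3 at -0.34.

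Of the 16097 other named probe sets, the array pattern most like that of MBNL3 was found by Pearson correlation over the 6 arrays, as a description. The closest 5 protein-coding genes were EPS8 (r = 0.998), CANX (0.997), PCLO (0.997), NOXRED1 (0.993) and ZNF184 (0.987). EPS8 is an actin-regulating adaptor, CANX the chaperone calnexin and PCLO the presynaptic protein piccolo. Their own changes were 0.09 for EPS8, 0.14 for CANX, 0.37 for PCLO, 0.46 for NOXRED1 and 0.19 for ZNF184, all smaller than that of MBNL3. The likeness includes the raised control replicate 2, since deviations from the group means correlated at 0.933 to 0.994. Of the 16097 probe sets compared, 99 had r above 0.95. Among the members, r with MBNL3 was 0.87 for the brighter MBNL1 probe set, 0.40 for the dimmer, 0.25 for PTBP1, 0.60 for MBNL2, 0.74 for PTBP2 and -0.91 for ESRP2. Within the groups the correlation was -0.62 for the brighter MBNL1 probe set, -0.25 for the dimmer and -0.39 for PTBP1. It was -0.17 for MBNL2, 0.51 for PTBP2 and -0.55 for ESRP2. The r over all 6 arrays includes the difference between groups on which MBNL3 was chosen. Its sign was that of each member's own change. Deviations within groups of so few arrays cannot decide whether a member shares them with MBNL3. No likeness between paralogs is read from these values.

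Of 10 listed epithelial markers 8 had a probe set, among them EPCAM, which is the defining surface marker, and the keratins KRT8, KRT18 and KRT19. EPCAM read 10.98, 10.89 and 10.83 in miR-196b, against 10.95, 11.14 and 10.98 in control, at the 98.8 percentile of named probe sets or above on every array. The mean level of the 8 was 8.47 to 8.60 in miR-196b and 8.56 to 8.61 in control (log2, range over arrays). Of the 8, 5 had a negative change (6 under median centring or a repeated quantile normalisation), where 7733 of all 16098 named probe sets did. A link between these markers and ESRP2 was not tested. KRT18 (-0.22) and CDX2 (-0.26), 2 of the 8, had an unadjusted p below 0.05, where 9.87% of all named probe sets did. Of the 8, 0 passed (limma adjusted p = 0.405 and 0.481 for KRT18 and CDX2). The groups were separated at 4 of the 8 (1 higher and 3 lower), where 17.2% of all named probe sets were so separated. KRT18, CDX2 and CLDN7 (-0.11) were the lower ones. CLDN4 went the other way, by 0.28 with separated groups (limma adjusted p = 0.504). Measured markers of skeletal muscle (4 of 8) had mean levels of 4.47 to 4.64 in miR-196b and 4.40 to 4.84 in control. Those of neurons (4 of 8) had 5.34 to 5.46 in miR-196b and 5.24 to 5.40 in control, those of fibroblasts (3 of 7) 3.06 to 3.22 in miR-196b and 3.08 to 3.20 in control, and those of blood cells (2 of 6) 3.50 to 3.70 in miR-196b and 3.37 to 3.55 in control. Single genes ranged widely around these means. Averaged over all arrays, epithelial markers lay between 4.16 (VIL1) and 11.27 (CLDN7), and neuron markers between 3.20 (STMN2) and 8.18 (SYT1). The neuron marker SYT1 was thus brighter than KRT8, at 6.63 in miR-196b and 6.72 in control. The part of other cell types in the values above was not tested.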

How the data were processed

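The deposited values are log2 levels, 1 per probe set and array, and RMA and Partek 6.6 are named without order or options in the submitters' processing notes. RMA corrects background and makes the arrays' distributions alike, so the authors' log2 values hold no difference in overall level; array medians were 4.34 to 4.37. Base 2 is assumed, as is usual for RMA. A genome build is not given in the sources used here. Probe sets were named through the platform annotation, with symbols updated by gene identifier to GRCh38.p14; of 53617, 16098 had 1 symbol, 0 several and 37519 none.

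Values were fitted as deposited with limma 3.58.1 (lmFit, eBayes, no trend, not robust) in R 4.3.3 on all named probe sets, with Benjamini-Hochberg adjustment at 0.05. Prior degrees of freedom were 3.23 beside 4 residual. An exact permutation test of 3 against 3 cannot go below 0.1. The fit was tested on simulated data in which spread was assigned without regard to level, so that test cannot vouch for dim probe sets in particular. Genes named from the lists were the 4 with the smallest p. HNRNPA3, ESRP1, PTBP3 and the neighbours of MBNL3 were picked out with their values in view. The members and lists were chosen with earlier results of these data known. Scan dates were not used here and batches were not examined.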

Additional observations from a re-analysis of the deposited data

How the results depend on the processing

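The log2 changes of the member probe sets kept their sign in every alternative that contained them, with 1 exception: PTBP1 was -0.00245 without miR-196b replicate 3. Alternatives that altered only the variance model, the replicate block or the tested set could not move a change. After a repeated quantile normalisation PTBP1 was 0.087. The change of MBNL3 was 0.90 to 1.14 with an array left out, that of ESRP2 -0.24 to -0.16. The number of member probe sets called was 0 as reported, 1 with trend and robust prior and 0 to 1 with an array left out, MBNL3 each time. The number of other splicing genes called was 0, with 1 (TIA1) under the trend and robust prior. The number of named probe sets called was 9 (4 higher, 5 lower), 22 without the dimmest 40% (12 higher, 10 lower), 91 with trend and robust prior (56 higher, 35 lower), 5 without variance moderation (3 higher, 2 lower) and 2 to 3 with an array left out. With the replicate number as a block it was 1, and the block changed no call of a member. The labels give same-numbered arrays no stated link beyond the number. Deviations of such arrays from the group means correlated at 0.0085 to 0.0369. Of the 3 miR-196b arrays, 2 correlated best with the control array of their own number. Whether same-numbered arrays share a batch was not tested. DMPK, at 0.00699, was -0.000618 after median centring, -0.0161 after repeated quantile normalisation, -0.0258 without miR-196b replicate 2, and -0.0566 to 0.0526 with each array left out. The cause was not tested. With 3 arrays a group, changes as small as those of MBNL1, MBNL2 and PTBP2 have 95% intervals that include 0, and no detection call sets a floor for the dim MBNL3 signal.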
